A study of Mus musculus with 3 samples.

Results

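Genes that remodel, modify or methylate chromatin were examined for binding of Tcf1 (the HMG-box factor encoded by Tcf7) in splenic CD4 T cells. The members were the 95 protein-coding genes, of 21887 in the RefSeq table, whose symbols belong to the Chd, Smarc, Arid, Kmt, Kdm, Setd, Hdac, Kat, Tet and Dnmt families. A Tcf1 peak was counted at a member when its midpoint lay in the gene span, or when the gene was the nearest protein-coding gene within 100 kb. By this rule 83 of 4519 peaks in conventional CD4 T cells and 57 of 3402 peaks in regulatory T cells (Treg cells) were at members. The genes were chosen by symbol and the peaks were selected on their measured positions, with earlier results of these data known, so the counts below are descriptions and carry no test.

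Both cell types were sorted from the spleens of wild type Foxp3-Cre-GFP mice, aged 8 to 10 weeks, a reporter strain in which GFP marks cells that express Foxp3. Conventional cells were TCRb+ CD4+ CD25- and lacked the reporter, and Treg cells were TCRb+ CD4+ CD25+ and carried it. Each cell type was represented by 1 library made with an antiserum against Tcf1. The sources used here do not give how many mice were behind a library. The tissue label of the conventional sample calls it effector, against its title and source. A library of Tcf1-deficient TCRb+ CD4+ cells, from CD4-Cre+ Tcf1 fl/fl mice, was not analysed here. The lists hold peak positions and no read numbers. Depth is therefore unknown, and the labelled cell types could not be checked against marker expression. With 1 library a cell type there is no replicate check, and a difference between the lists is a difference between these libraries. A peak is called shared when 1 bp or more of it lay under a peak from the other cell type. It is called conventional-only or Treg-only when the other cell type had neither such a peak nor a midpoint closer than 1000 bp.

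The families work at successive layers of chromatin control. The ATPases of the Chd and Smarc families slide or evict nucleosomes, several of them in multisubunit complexes such as BAF, whose large Arid subunits help define the variant of the complex. Kmt and Setd enzymes add methyl groups to histone lysines and Kdm enzymes remove them, Kat enzymes acetylate histones and Hdac enzymes deacetylate them, while Dnmt enzymes methylate cytosine in DNA and Tet enzymes oxidise that mark. A few genes carry a family symbol without sharing the activity, such as Setd3, an actin methyltransferase. Tcf1 itself recruits coactivators and corepressors, and Tcf1 and Lef1 have been described to carry deacetylase activity of their own.

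Promoter sequence from RefSeq (GRCm38.p6, the assembly of mm10) was available for 75 of the 95 genes, with or without a peak. The 250 bases before the start are shown for 7 of them whose promoter was overlapped by a peak, 5′ to 3′ on the strand of the gene. They were picked to set promoters that hold the letters CTTTGA or CTTTGT, the core of the TCF/LEF recognition sequence, beside promoters that were overlapped by peaks and do not hold them. Capitals mark each match on either strand (TCAAAG and ACAAAG are matches read on the opposite strand). Kmt2d, Kdm8 and Setd7 had a match under a peak of both lists. In Kdm5c the match lay under the conventional peak and not under the Treg peak. The match of Smarca4 was not wholly covered by a peak of either list. Kmt2a had a peak of both lists and Kmt5b a conventional peak, with no match in these bases.
Kmt2d, chr15:98871206-98871455, minus strand: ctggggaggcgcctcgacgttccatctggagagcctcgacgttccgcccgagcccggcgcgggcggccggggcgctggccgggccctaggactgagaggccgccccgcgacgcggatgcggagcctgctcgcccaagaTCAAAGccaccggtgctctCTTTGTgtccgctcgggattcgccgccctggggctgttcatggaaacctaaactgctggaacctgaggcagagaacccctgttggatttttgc
Kdm8, chr7:125444370-125444619, plus strand: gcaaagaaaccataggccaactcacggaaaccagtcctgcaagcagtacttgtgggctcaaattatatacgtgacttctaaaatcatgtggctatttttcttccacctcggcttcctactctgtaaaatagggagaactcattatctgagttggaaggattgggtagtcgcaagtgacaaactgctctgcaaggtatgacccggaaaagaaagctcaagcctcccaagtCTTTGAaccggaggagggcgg
Setd7, chr3:51560824-51561073, minus strand: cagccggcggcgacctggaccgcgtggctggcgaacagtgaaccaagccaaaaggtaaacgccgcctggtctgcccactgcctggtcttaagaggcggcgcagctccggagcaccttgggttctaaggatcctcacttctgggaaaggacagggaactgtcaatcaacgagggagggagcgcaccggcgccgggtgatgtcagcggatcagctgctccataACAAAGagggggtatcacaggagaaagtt
Kdm5c, chrX:152232977-152233226, plus strand: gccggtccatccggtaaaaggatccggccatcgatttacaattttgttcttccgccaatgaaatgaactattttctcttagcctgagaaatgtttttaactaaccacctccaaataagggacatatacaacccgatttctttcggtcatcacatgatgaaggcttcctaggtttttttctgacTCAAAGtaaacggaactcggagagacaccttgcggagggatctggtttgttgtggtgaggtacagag
Smarca4, chr9:21615919-21616168, plus strand: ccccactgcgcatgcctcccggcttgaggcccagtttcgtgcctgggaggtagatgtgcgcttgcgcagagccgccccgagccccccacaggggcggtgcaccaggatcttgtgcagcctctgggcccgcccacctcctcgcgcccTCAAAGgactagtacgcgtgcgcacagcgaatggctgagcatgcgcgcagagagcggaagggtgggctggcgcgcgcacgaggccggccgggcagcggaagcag
Kmt2a, chr9:44881290-44881539, minus strand: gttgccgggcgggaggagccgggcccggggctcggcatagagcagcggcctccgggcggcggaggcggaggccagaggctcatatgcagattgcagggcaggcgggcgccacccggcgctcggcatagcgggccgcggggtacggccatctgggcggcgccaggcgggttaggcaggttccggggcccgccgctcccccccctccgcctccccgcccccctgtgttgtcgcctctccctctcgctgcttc
Kmt5b, chr19:3767639-3767888, plus strand: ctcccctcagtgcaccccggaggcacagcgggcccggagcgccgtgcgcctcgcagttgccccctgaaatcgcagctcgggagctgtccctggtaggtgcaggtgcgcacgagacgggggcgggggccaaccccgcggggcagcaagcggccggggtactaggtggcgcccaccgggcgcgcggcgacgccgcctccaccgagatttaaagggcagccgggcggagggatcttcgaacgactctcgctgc

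Most members had a Tcf1 peak. A conventional peak was assigned to 49 of 95 members (51.6%), against 16.3% of all protein-coding genes. A Treg peak was assigned to 38 members (40.0%), against 12.3%. Peaks of both lists were found at 33 members (34.7%, against 8.17%), a conventional peak without a Treg peak at 16 (16.8%, against 8.1%), and a Treg peak without a conventional peak at 5 (5.26%, against 4.13%). No peak was assigned to the remaining 41 members. The share with a Treg peak alone lay close to its background, and the other shares were over 2 times theirs. The Treg-alone count was 11 in place of 5 when the conventional list was cut to its 3402 widest peaks, and 1 of the 5, Arid4b, had a Treg peak that was shared. With the wider part of each list (peaks at or above its median width) a Treg peak was at 23 members, against 6.59% of all genes, and peaks of both lists at 19. No share over all genes is given for the 11 or the 19 under these cut lists. Members were long genes, with a median span of 50.9 kb against 17.2 kb for all protein-coding genes, and a long span has more room for a peak. The shares were also set against all genes in the same range of span. Of the 32 shortest members (5.4 to 35.7 kb) 16 had a conventional and 12 a Treg peak. Of all genes of that range 16.7% and 12% had one. Of the 31 members of middle span (35.7 to 77.9 kb) 14 had a conventional and 9 a Treg peak, or 45.2% and 29.0%, against 22.6% and 16.5%, the smallest ratios of the 3 ranges. Among the 32 longest (77.9 to 870.0 kb) the shares were 59.4% and 53.1%, against 23.8% and 19.9%. The activity of the genes in T cells was not measured here, and its part in these shares was not tested.

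**Figure D1:**
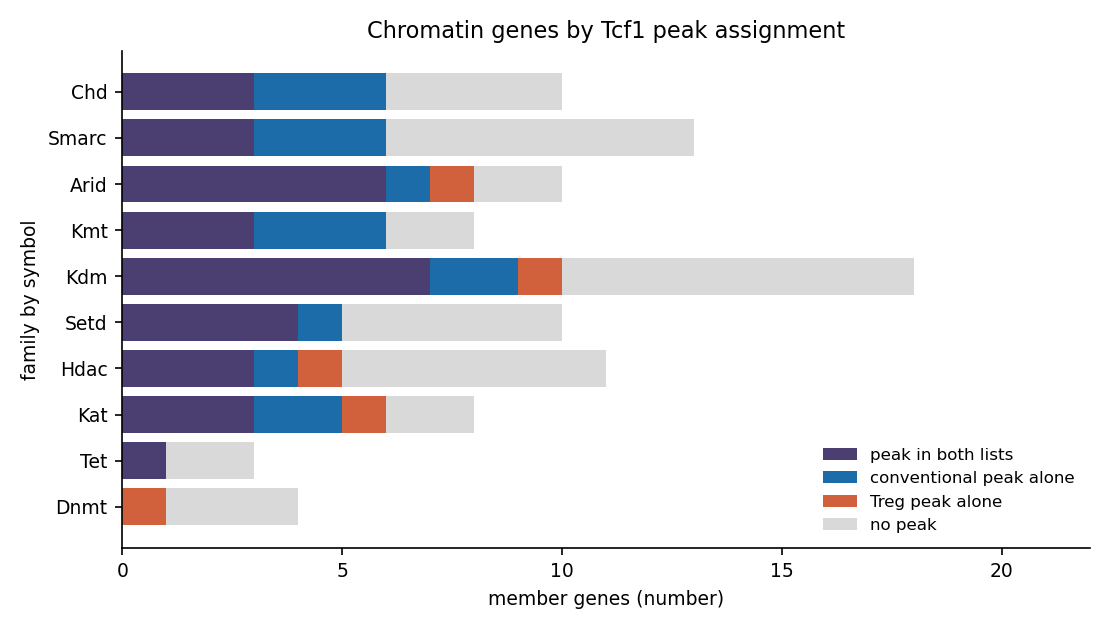
Members of each family (number of genes, x axis) by whether a Tcf1 peak was assigned in both lists, in the conventional list alone, in the Treg list alone, or in neither. The Kdm family holds 18 members, 7 of them with peaks in both lists, while 6 of the 11 Hdac genes and 3 of the 4 Dnmt genes have no peak assigned. Of all protein-coding genes 8.17% have peaks in both lists and 79.6% have none assigned.

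By role, the H3K4 methyltransferases had peaks at the largest share of members among the role groups of more than 2 genes. Conventional peaks lay at 7 of the 8 genes and Treg peaks at 6, and Kmt2b alone had none. Kmt2e was placed in this group by its symbol, and enzyme activity was not measured here. Subunits of BAF and PBAF within the families had conventional peaks at 8 of 12 and Treg peaks at 5 of 12, with no peak at Smarcb1, Smarcc1, Smarcd2 or Smarcd3. Class I deacetylases had peaks at 1 of 4 genes in each list, Hdac2, and none assigned to Hdac1, Hdac3 or Hdac8. A conventional peak did lie within 10 kb of the Hdac3 span. Of the 3 Tet genes, which encode the enzymes that start active DNA demethylation, Tet3 alone had peaks, and of the 4 Dnmt genes Dnmt3a alone had a peak. These groups hold few genes, and no order among them was tested.

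A run of several peaks was more frequent at members than at genes in general. At least 3 conventional peaks were assigned to 8 members, against 0.832% of all genes, and at least 3 Treg peaks to 4 members, against 0.388%. Members were longer genes, and these runs were not set against genes of the same range of span. In each list most members with a peak had a single one, 31 of 49 in the conventional and 27 of 38 in the Treg list. Over all genes with a peak the share with a single one was larger, 2947 of 3561 and 2322 of 2691. A pattern of 1 shared peak in each list and no other peak was found at 14 members: Kdm3a, Kdm8, Kat7, Setd1a, Kdm5c, Kmt2a, Hdac10, Smarca4, Kdm3b, Kdm4c, Hdac2, Smarcd1, Setd7 and Kat5. No count of this pattern over all genes is given here.

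**Figure D2:**
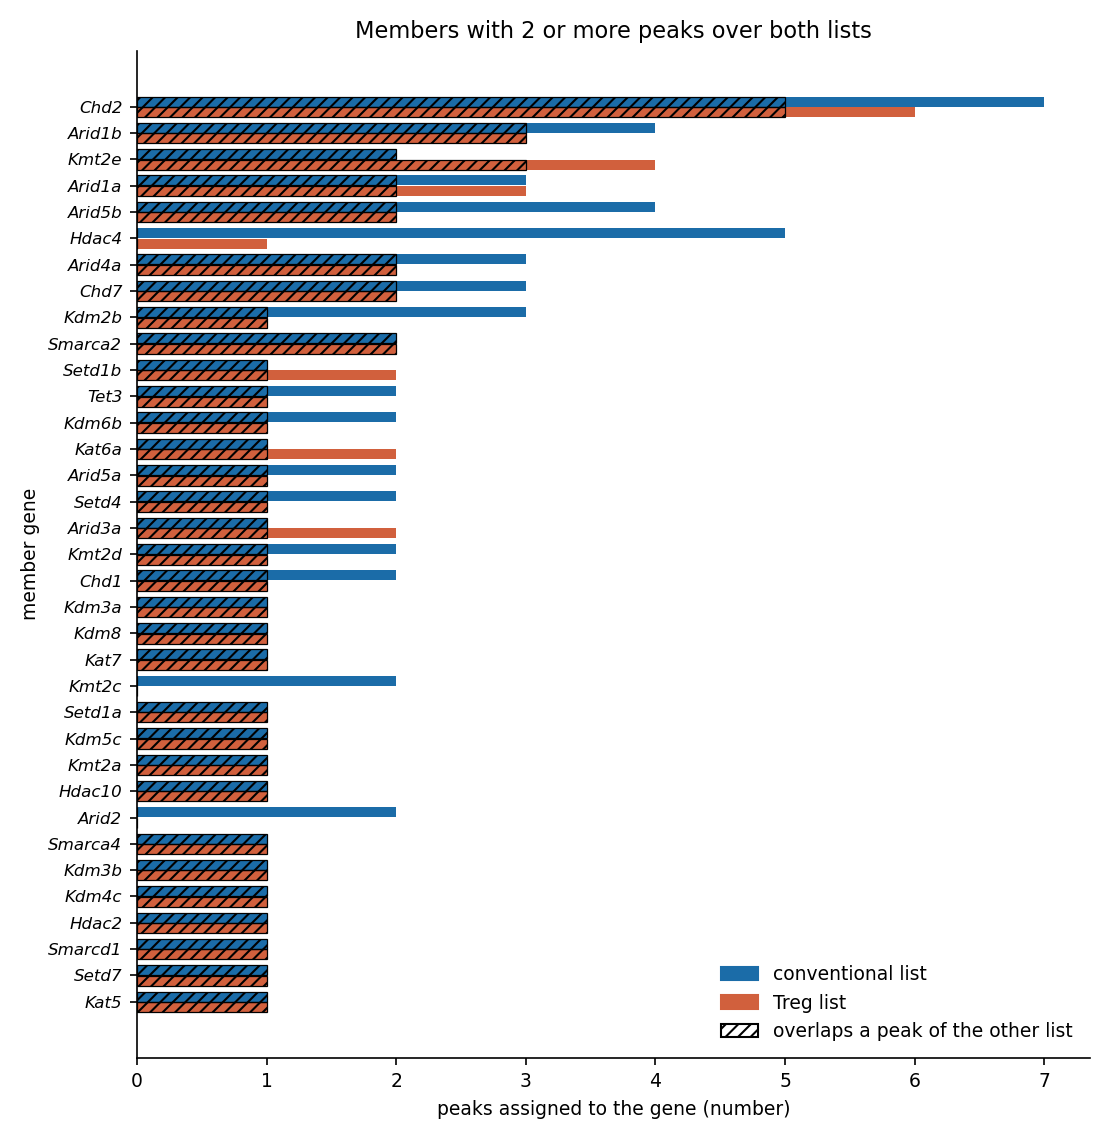
Peaks assigned to each member that had at least 2 over both lists together (number, x axis), in the conventional and the Treg list, with the hatched part overlapping a peak of the other list. Chd2 leads with 7 conventional and 6 Treg peaks, while the 5 conventional peaks and 1 Treg peak of Hdac4 have no hatched part.

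Among the remodelling ATPases, Chd2 (chr7:73426652-73541746), which encodes a remodeller bound at active genes, held the longest run. Conventional peaks there numbered 7 and Treg peaks 6, and each list shared 5 of them with the other. Both lists had 2 of these inside the gene, at chr7:73530760-73531347 and chr7:73537689-73538289 in the conventional list and at chr7:73530921-73531305 and chr7:73537671-73538219 in the Treg list. The other peaks lay beyond the high-coordinate end of the span and reached 76680 bp from it in the conventional list and 76832 bp in the Treg list. The peak 16588 bp outside the span, at chr7:73558002-73558666 (665 bp wide, against 648 bp in the Treg list), had its midpoint in Chaserr, a long noncoding RNA gene known to restrain Chd2 expression in cis. Farther out, within the noncoding gene Gm30149, the lists differed. Conventional peaks at chr7:73584706-73585071 and chr7:73589049-73589572 overlapped no Treg peak, and the Treg peak at chr7:73589835-73590185 lay next to the second of them without overlap. The next protein-coding gene, Fam174b, was 121881 bp away from the outermost conventional peak. When every peak within 10 kb of the span was counted instead, Chd2 had 2 peaks in each list.

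Chd7 (chr4:8690402-8868449), a remodeller of developmental enhancers, had 3 conventional and 2 Treg peaks. Both Treg peaks were shared, with widths of 454 bp inside the gene (chr4:8799442-8799895) and 436 bp at 58246 bp outside it (chr4:8926478-8926913), and their midpoints lay 30 and 56 bp from those of the conventional partners. The conventional-only peak, 304 bp wide, was 23455 bp outside the gene on the other side. Chd1, a remodeller of transcribed promoters and gene bodies, had a shared peak at a gene end, 288 bp wide in the conventional and 297 bp in the Treg list, and a conventional-only peak of 286 bp inside the gene. Chd3, Chd8 and Chd9 each had 1 conventional-only peak and no Treg peak. That of Chd8 (499 bp) lay 158 bp before a start and that of Chd9 (326 bp) 32740 bp outside the span. No peak was assigned to Chd4, the ATPase of the NuRD complex, to Chd5 or to Chd6.

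**Figure D3:**
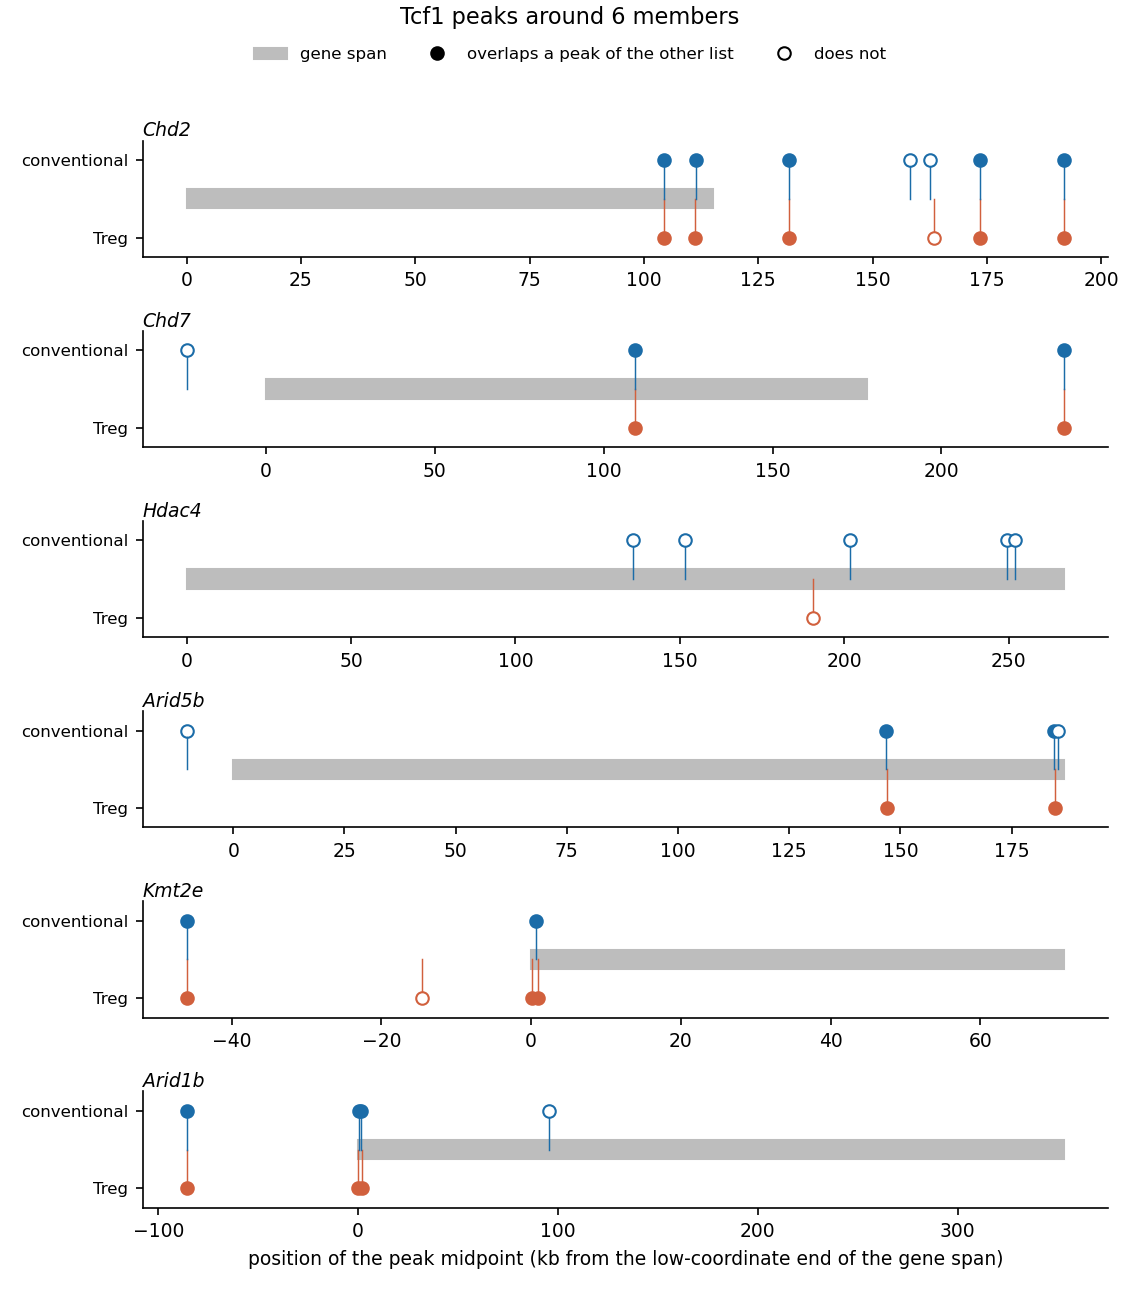
Midpoints of the peaks around Chd2, Chd7, Hdac4, Arid5b, Kmt2e and Arid1b (x axis, kb from the low-coordinate end of the gene span, grey), conventional above and Treg below, filled where the peak overlaps a peak of the other list. At Chd2, 5 filled pairs line up above one another, while all 6 peaks at Hdac4 are open.

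Of the BAF ATPase genes, Smarca4 (which encodes Brg1) and Smarca2 (which encodes Brm) had shared peaks alone. The Smarca4 peak was 468 bp wide in the conventional and 297 bp in the Treg list and lay 334 and 361 bp before the start. Smarca2 had a pair of shared peaks, both inside the gene (chr19:26607208-26607668 and chr19:26747909-26748384 in the conventional list). Their widths were 461 and 476 bp in the conventional list and 491 and 459 bp in the Treg list. Smarcd1, which encodes an accessory subunit, had a shared peak of 297 bp (conventional) and 354 bp (Treg) just before its start. Smarca5, the ATPase of the ISWI complexes, had a peak in the conventional list alone, which at 892 bp (chr8:80739226-80740117) ranked 190 of 4519 by width and covered the start. Smarcc2 and Smarce1, core and accessory BAF subunits, each had 1 conventional-only peak, of 286 and 430 bp.

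Of the large Arid subunits, Arid1b (chr17:4994297-5347656) had 4 peaks in the conventional list, 3 of them shared, and 3 in the Treg list, all shared. A pair of these flanked the start, at 593 bp before it and 599 bp after it in the conventional list, and at 616 bp before and 923 bp after it in the Treg list. The peak after the start was 760 bp wide in the conventional list and 838 bp in the Treg list. The remaining shared peak lay 85886 bp outside the span, in the noncoding gene Gm34507, and was the member peak closest to the limit of 100 kb from within. A Treg-only peak 367918 bp from Arid1b was the single peak past the limit whose nearest gene was a member. Arid1a (chr4:133679008-133756769), whose product defines the canonical BAF complex, had 3 peaks in each list. Its shared peaks lay at chr4:133756695-133757781 (1087 bp, against 459 bp in the Treg list) and chr4:133754289-133754968 (680 bp, against 534 bp). The peaks that were not shared were both inside the gene, the conventional one at chr4:133728279-133728805 and the Treg one at chr4:133751772-133752114, far from each other. Arid2, the PBAF subunit, had 2 conventional-only peaks inside the gene, of 280 and 472 bp, and no assigned Treg peak. A Treg peak did lie within 10 kb of the Arid2 span.

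Arid genes outside BAF carried peaks as well. Arid5b (chr10:68092523-68279355), a DNA-binding partner of a histone demethylase, had shared peaks of 879 and 970 bp in the conventional list and 638 and 965 bp in the Treg list. The wider of them (chr10:68276548-68277517) lay 1694 bp into the gene from the nearest start. A further conventional peak of 325 bp lay nearer to that start, next to the Treg peak but without overlap, and a conventional-only peak of 309 bp lay 10507 bp outside the gene. Arid5a, an RNA-binding family member that stabilises cytokine transcripts, had a conventional-only peak of 636 bp at its start and a shared peak 2060 bp into the gene (434 bp, against 396 bp in the Treg list). Arid4a, a partner of the retinoblastoma protein, had 2 shared peaks, one of 652 bp at the gene end and one of 522 bp inside the gene, and a conventional-only peak 8077 bp outside it. Its Treg peaks were narrower, at 375 and 350 bp. Arid3a had a shared peak inside the gene and a Treg-only peak of 290 bp at a gene end.

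Of the Kmt and Setd genes, Kmt2e (chr5:23433036-23504235), grouped here with the H3K4 enzymes by its symbol, held the widest member peak. At 1855 bp (chr5:23432770-23434624) it ranked 5 of 4519 in the conventional list. In the Treg list this stretch was covered by a pair of separate peaks, of 741 bp (chr5:23432768-23433508) and 358 bp (chr5:23433776-23434133). A further shared peak lay 46029 bp outside the gene, 633 bp wide in the conventional and 342 bp in the Treg list, and a Treg-only peak of 263 bp lay between them. All of these Kmt2e peaks had their midpoints in the noncoding gene 5031425E22Rik. Setd1b, a catalytic subunit of the SET1 H3K4 complex, had a shared peak inside the gene (914 bp at chr5:123150572-123151485, against 839 bp in the Treg list, midpoints 25 bp apart). It also had a Treg-only peak of 426 bp at a gene end (chr5:123167533-123167958), the widest Treg-only peak among the members.

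The start of Setd1a, which encodes the other SET1 enzyme, had a shared peak 288 bp before it in the conventional list (508 bp wide) and 260 bp before it in the Treg list (405 bp). Kmt2a (which encodes Mll1) had a shared peak whose midpoints in the lists were 3 bp apart, 486 and 421 bp wide, 206 and 203 bp before the start shown above. Kmt2d (which encodes an enhancer H3K4 methyltransferase) had a shared peak with midpoints 2 bp apart, 393 and 304 bp wide, just before an annotated start inside the gene span, and a second conventional peak beside it. Kmt2c, the paralogue of Kmt2d, had 2 conventional-only peaks around its start, of 305 and 599 bp, and no Treg peak. The H4K20 methyltransferase genes Kmt5b and Kmt5c also had a conventional-only peak at the start and no Treg peak. That of Kmt5b was 1245 bp wide (chr19:3767693-3768937) and was the widest conventional-only peak among the members. Setd5 had a conventional-only peak of 652 bp at the end of its span. No peak was assigned to Setd2, the H3K36 methyltransferase, or to the H3K9 enzymes Setdb1 and Setdb2. Setd4 had a shared peak 8753 bp outside its span (387 bp wide, against 461 bp in the Treg list) and a conventional-only peak nearby.

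Among the demethylases, Kdm2b (chr5:122870664-122989270), which binds unmethylated CpG islands and links them to Polycomb, had 3 conventional peaks and 1 Treg peak. The shared peak, 1314 bp outside the span, was 620 bp wide in the conventional and 287 bp in the Treg list. The conventional-only peaks lay 127 and 5398 bp outside the span and were 563 and 572 bp wide. Kdm3a, an H3K9 demethylase, had a shared peak of 886 bp (conventional) and 778 bp (Treg) across its start. Kdm6b, the H3K27 demethylase Jmjd3, had a shared peak inside the gene with midpoints 4 bp apart (chr11:69409353-69410132 in the Treg list). That peak was 780 bp wide in the Treg list and 463 bp in the conventional list, the reverse of the usual order of widths, and a conventional-only peak of 433 bp lay in the same gene. Kdm8 had a shared peak of nearly the same width in both lists, 662 and 665 bp. Kdm5a and Kdm7a had a conventional-only peak at a gene end, of 473 and 657 bp, and the Kdm5a peak also lay in the neighbouring gene Ccdc77. That of Kdm7a lay 369 bp after its start. Kdm2a had a Treg-only peak of 413 bp, which lay in 9430078G10Rik as well. No peak was assigned to Kdm1a (which encodes Lsd1) or to Kdm6a (which encodes Utx).

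Hdac4 (chr1:91928779-92195702), a class IIa deacetylase that shuttles between cytoplasm and nucleus, was the single member with peaks in both lists and none of them shared. Its 5 conventional-only peaks, 318 to 509 bp wide, lay at chr1:92064329-92064733, chr1:92080288-92080632, chr1:92130369-92130686, chr1:92178000-92178462 and chr1:92180349-92180857, and the last of these lay 262 bp before a start inside the span. The Treg-only peak, 405 bp wide, lay apart from all of them at chr1:92119181-92119585. Among the other class IIa genes there was a conventional-only peak of 392 bp at the start of Hdac5, a Treg-only peak of 327 bp inside Hdac9 and no assigned peak at Hdac7. A conventional peak did lie within 10 kb of the Hdac7 span. Hdac2 and Hdac10 had a shared peak each. Those of Hdac2 were 282 bp (conventional) and 356 bp (Treg) wide, with midpoints 297 bp apart.

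The acetyltransferase genes Kat5, Kat6a and Kat7 had a shared peak at a start or gene end. That of Kat6a was 770 bp wide in the conventional and 358 bp in the Treg list, and a Treg-only peak of 372 bp lay 20485 bp outside the gene. That of Kat7, whose product acetylates H3K14, was 653 and 333 bp wide. Kat6b had a conventional-only peak of 881 bp inside the gene (chr14:21500398-21501278) and Kat2b one of 436 bp, both without a Treg peak. Kat8, which encodes the H4K16 acetyltransferase, had a Treg-only peak of 412 bp and no conventional peak. Tet3 had a shared peak inside the gene that was wider in the Treg list (887 bp, chr6:83415784-83416670) than in the conventional list (554 bp), and a conventional-only peak of 389 bp. Dnmt3a, the de novo DNA methyltransferase, had a single Treg-only peak of 318 bp (chr12:3890964-3891281), 622 bp before an annotated start inside the gene. No peak was assigned to Tet1, Tet2, Dnmt1, Dnmt3b or Dnmt3l.

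Sharing was then compared with that of the whole lists. Of the 83 conventional peaks at members 44 were shared, or 53.0% (95% Clopper-Pearson interval 41.7% to 64.1%), against 42.8% of the whole list. Of the 57 Treg peaks 46 were shared, or 80.7% (68.1% to 90.0%), against 56.9%. The intervals cover counting error only, and peaks at 1 gene are not independent. The interval of the Treg share lay above the share of the whole list and that of the conventional share included it, with no test made. At gene ends (within 1 kb of either end of the span) 20 of 22 Treg peaks at members were shared, against 65.3% of all assigned Treg peaks there, and 18 of 32 conventional peaks, against 43.0%. Inside genes the counts were 18 of 24 Treg peaks, against 56.4%, and 18 of 35 conventional peaks, against 40.9%. There were 36 conventional-only peaks at 29 members (43.4% of 83, against 55.9% of the whole list) and 10 Treg-only peaks at 10 members (17.5% of 57, against 41.4%). The whole lists also hold more conventional-only than Treg-only peaks, 2527 and 1407. The conventional list is the longer of the lists, and depth, which is unknown, can set the number of peaks called.

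Shared peaks at members lay almost on top of each other, with a median of 58 bp between midpoints (2 to 559 bp) over 46 Treg peaks, against 59 bp over the 1935 shared Treg peaks of the whole list. In 35 of the 46 pairs the conventional peak was the wider and in 11 the Treg peak. Over the whole list it was the wider in 1351 of 1935 pairs. The median width of member peaks was 472 bp (interquartile range 376.5 to 626.5 bp) in the conventional list, against 428 bp for the whole list, and 375 bp (318 to 459 bp) in the Treg list, against 366 bp. Of the conventional peaks at members 24 of 83 (28.9%) were in the widest 20% of their list, 17 of them shared. Of the Treg peaks 12 of 57 (21.1%) were in the widest 20%, and all 12 were shared. Shared peaks were also the wider in the whole lists. Their median was 497 bp against 388 bp for conventional-only peaks, and 408 bp against 321 bp for Treg-only peaks. The share of the widest 20% of each whole list that was shared is not given here.

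**Figure D4:**
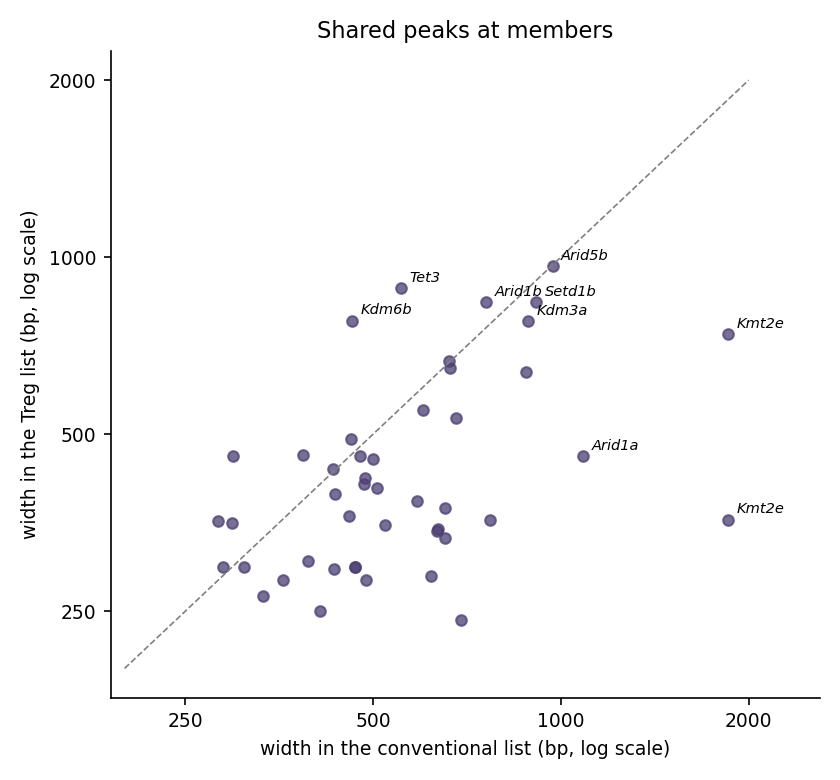
Width of each of the 46 shared Treg peaks at members (y axis, bp, log scale) against that of its conventional partner (x axis, bp, log scale), with a dashed line at equal width. Most points lie below the line, 35 of them, while Kdm6b and Tet3 lie above it, and the 1855 bp conventional peak of Kmt2e appears at 2 points because it overlaps 2 Treg peaks.

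Positions relative to annotated starts were examined for the 75 members with a start in the RefSeq promoter table. A conventional peak had its midpoint within 1 kb of a start at 31 of them (41.3%, against 12.7% of the 17492 genes with a known start), and a Treg peak at 19 (25.3%, against 8.15%). The Treg count was 7 with the wider part of each list, and no share over all genes is given for that setting. Both lists had such a peak at 18 members (24.0%, against 5.6%). The single member with a Treg peak alone at a start was Dnmt3a. Midpoints lay a median of 244 bp from the nearest start for 35 conventional peaks, 24 of them before the start, and 204 bp for 21 Treg peaks, 15 of them before it. These counts include start-proximal peaks that the assignment rule gave to a neighbouring gene. At Setd3 the shared peak was assigned to Ccnk and at Kat14 to Pet117. At Chd1l a conventional-only peak of 549 bp was assigned to Fmo5. At Arid4b the peaks overlapped, but the Treg peak (242 bp) was assigned to Arid4b and the conventional peak (692 bp) to Ggps1, so Arid4b is one of the 5 members counted with a Treg peak alone although its peak was shared. The other 4 were Dnmt3a, Hdac9, Kat8 and Kdm2a.

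**Figure D5:**
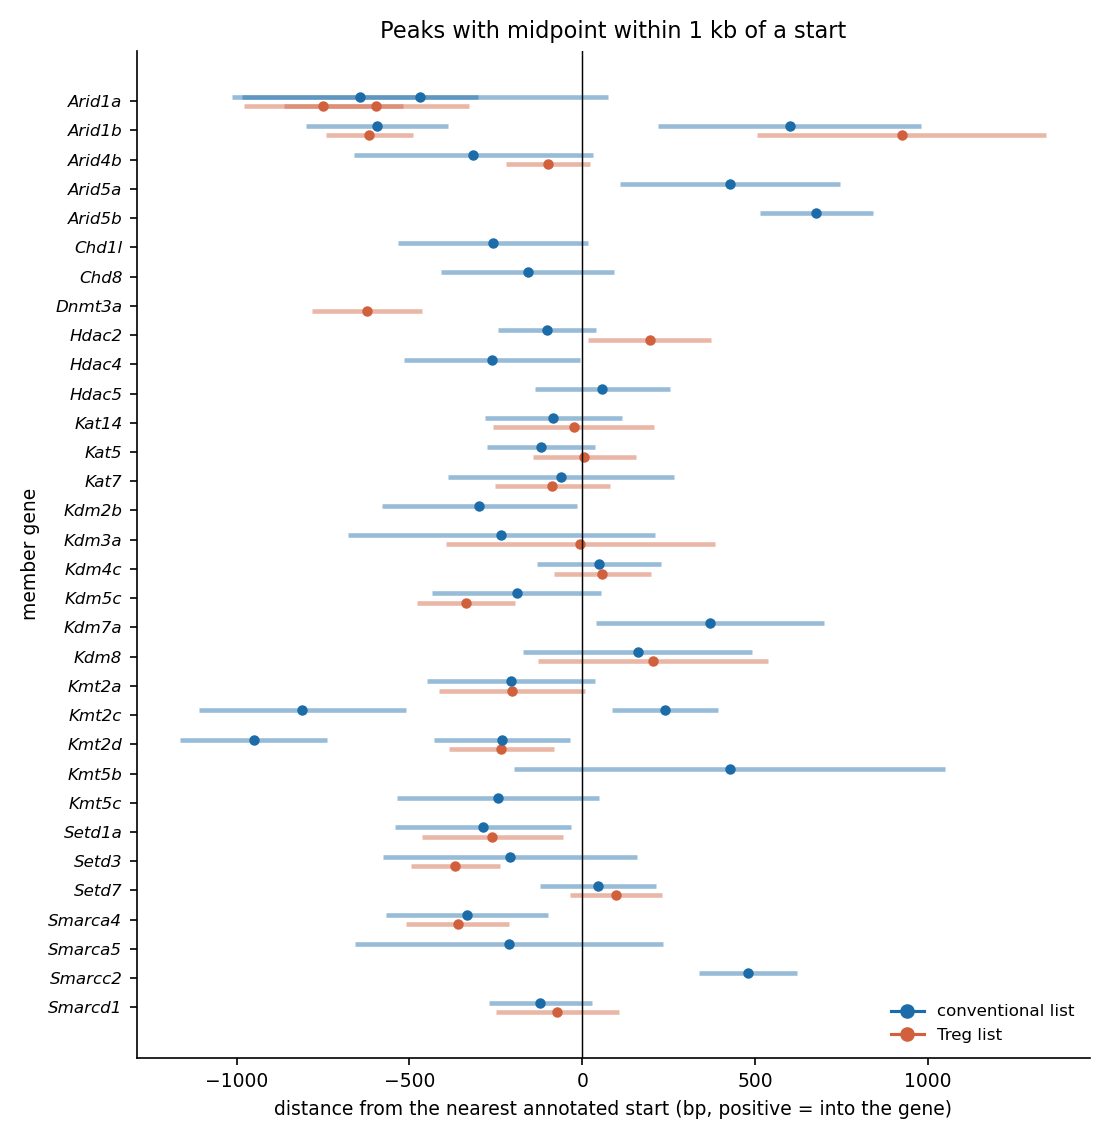
Peaks with a midpoint within 1 kb of an annotated start of a member (x axis, bp from the nearest start, positive into the gene), with the peak width as a bar and the midpoint as a dot. Most midpoints lie before the start, 24 of 35 in the conventional and 15 of 21 in the Treg list.

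The promoter windows of these starts (250 bases before to 50 after, 105 windows of 75 genes) were then described by sequence. Peaks of either list overlapped 29 windows of 26 genes. Those windows had a median GC content of 67.7% and a median CpG ratio (observed over expected) of 0.893, against 61.7% and 0.727 in the 76 member windows without a peak. Over all 21263 windows of protein-coding genes the corresponding values were 63.7% and 0.869 with a peak, and 55.0% and 0.478 without. Member promoters were thus rich in CpG whether or not they carried a peak, as were promoters with a peak in general. The GC box GGGCGG was in 72.4% of member windows with a peak and 65.8% of those without, against 74.1% of all windows with a peak and 46.2% of all windows. The ETS letters CCGGAAG were in 17.2% and 10.5% of the member windows, against 25.2% of all windows with a peak and 11.6% of all. The YY1 letters AAGATGGC were in 6.9% of member windows with a peak and 0.0% of those without, against 6.53% of all windows with a peak and 3.05% of all. The CRE letters TGACGTCA were in none of the 105 member windows, in 5.17% of all windows with a peak and in 2.23% of all. The palindromic NRF1 motif was in 2 member windows, both without a peak, and in 1.99% of all windows with a peak and 1.33% of all. The AP-1 letters TGANTCA were in 2 of the 29 member windows with a peak (6.9%) and 10.5% of member windows without, against 3.39% of all with a peak and 6.99% of all. The RUNX letters TGTGGTT were in none of the 29 and 3.95% of member windows without a peak, against 3.69% of all with a peak and 4.71% of all.

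The TCF/LEF letters CTTTGA or CTTTGT, on either strand, were in 8 of 29 member windows with a peak (27.6%) and 21.1% of member windows without, against 24.2% of all windows with a peak and 28.3% of all. Taken singly, CTTTGA was in 5 of 29 member windows with a peak (17.2%) and 2 of 76 without (2.63%), against 13.9% of all with a peak and 14.4% of all. CTTTGT went the other way, in 4 of 29 (13.8%) and 15 of 76 (19.7%), against 12.1% of all with a peak and 16.8% of all. The 8 windows with the letters were all overlapped by peaks of both lists. They made up 8 of 17 such windows (47.1%), while none of the 11 windows overlapped by a conventional peak alone and not the single window overlapped by a Treg peak alone held them. Overlap with a window is not the same as sharing. Among those 11, the windows of Arid1a and of a start of Setd3 lay under shared peaks whose Treg partner missed the window. The Treg-alone window was a start of Kat5, where the Treg peak was also shared. Over all protein-coding genes the shares were 29.3% of 921 windows overlapped by both lists, 21.8% of 1303 overlapped by a conventional peak alone and 21.0% of 486 overlapped by a Treg peak alone. The member counts are small and were not tested. The longer form CTTTGATC, which contains CTTTGA, was in 1 member window, that of Kmt2d, where it is read on the opposite strand, and in 0.842% of all windows. The other longer forms CTTTGAAG and CTTTGTTC were in no member window with a peak and in 1.54% and 1.52% of all windows. In the Kmt2d promoter shown above the matches lie 112 and 93 bases before the start, at chr15:98871312-98871317 and chr15:98871293-98871298, under the peaks of both lists. In Kdm8 the match is 21 bases and in Setd7 29 bases before the start. Smarcd1 holds CTTTGT 3 bases after its start, also under both peaks. Kat5 holds ACAAAG 235 bases before its start, which like the match of Kdm5c lies under the conventional peak alone. Kdm4c holds CTTTGA 208 bases before its start, which like that of Smarca4 lies wholly under neither peak. A match is a string of letters and not a measured site, and many peaks reach beyond the windows examined.

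Other genes of the same pathways, from 8 lists of 131 genes with symbols outside the families, had a conventional peak at 52 (39.7%, against 16.3%). A Treg peak was at 29 (22.1%, against 12.3%) and peaks of both lists at 22 (16.8%, against 8.17%). Polycomb genes had a conventional peak at 12 of 23 and a Treg peak at 6. They included Jarid2, a subunit that guides the H3K27 methyltransferase complex, which had 4 conventional peaks, 3 of them shared, and 3 Treg peaks, all shared, and a shared peak each at Ezh2 and Suz12. BAF and PBAF subunits with other symbols had a conventional peak at 5 of 18 and a Treg peak at 7. Ss18l1, counted here with a Treg peak alone, also had a conventional peak at its start that was not assigned to it. Bcl11b, a T lineage factor that is also a BAF subunit, had 4 conventional and 2 Treg peaks, of which 1 was shared. Acetyltransferases, sirtuins and bromodomain readers had a conventional peak at 10 of 18 and a Treg peak at 4, with 2 conventional and 3 Treg peaks at Ep300 (which encodes the p300 acetyltransferase). NuRD and corepressor subunits had a conventional peak at 6 of 18 and a Treg peak at 1, Tbl1xr1. ISWI and INO80 remodellers had a conventional peak at 5 of 14 and a Treg peak at 1, Srcap. Among these 5, the peak of Rsf1 was shared, with a Treg peak that was not assigned to Rsf1. COMPASS partners had 4 of 10 and 1, Men1, whose product tethers Mll1. Other histone and arginine methyltransferases had 7 of 16 and 6, and other demethylases and readers of DNA methylation 3 of 14 and 3. Conventional shares of the lists ran from 21.4% (other demethylases and readers) to 55.6% (acetyltransferases, sirtuins and readers), against 16.3% of all genes. Treg shares lay below the 12.3% of all genes for NuRD (5.56%), ISWI and INO80 (7.14%) and COMPASS partners (10.0%). For the other lists they lay above it. These lists are short, and no test was made.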

How the data were processed

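Tcf1 binding was measured by chromatin immunoprecipitation and sequencing in 1 library from each of the 2 cell types. Bowtie2 2.3.4.1, MACS2 2.1.1, FastQC and the build mm10 are named, without roles, per the submitters' processing notes. The authors deposited 1 list of filtered peaks per sample, with 3 columns (chromosome, start, end), but what was filtered out is not stated in the labels. They carry no counts or scores, and the unknown depth can affect how many peaks were called and how wide they are.

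Genes and promoter windows came from RefSeq tables of GRCm38.p6, and spans carry no exons, introns or UTRs. The mitochondrial genome was left out. Each peak went to all protein-coding genes whose span held its midpoint, else to the nearest within 100 kb (both in a tie). Motifs were searched on both strands. Coordinates are 1-based. Python 3.11.15, numpy 2.4.6, pandas 2.3.3, scipy 1.17.1 and matplotlib 3.10.9 were used, and the steps were checked on simulated peaks.

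The members and lists were chosen with earlier results of these data known. Members described in full were the 16 with most peaks, the one with most peaks in each family, those with the 5 widest peaks of each class and those with at least 2 peaks in 1 list alone. Any other member with a peak could be named, and up to 4 genes of each pathway list.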

Additional observations from a re-analysis of the deposited data

How the results depend on the processing

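Of 64 values from 10 alternative settings, 60 stayed within 1.5 times the reported count, within the counting interval of the reported share, or within 1 interquartile range of the reported width. Some of the 60 were fixed in advance. Counts at starts do not use the gene assignment, so a shorter assignment limit could not move them. The Treg list was not cut when the lists were made equal, so counts and widths of Treg peaks by themselves could not move there. With peaks at or above the median width of their own list, a Treg peak was at 23 members, peaks of both lists at 19 and a Treg peak at a start at 7, while 6.59% of all genes had a Treg peak. The cause was not tested. With the conventional list cut to its 3402 widest peaks, 11 members had a Treg peak without a conventional peak, and the Treg share that was shared was 70.2%. No value over all genes or whole lists is given for the 19, 7, 11 and 70.2%. A change at members can therefore not be told from a change of the lists. Members with a conventional peak ranged from 36 to 54 over the settings. No paired analysis was possible because each cell type has 1 library and the result comes from no test. Depth is unknown, so a member without a peak cannot be called unbound.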

Other observations

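Some member peaks also lay in genes that do not encode protein. Of the 83 conventional peaks 19 (22.9%) had their midpoint in the span of a noncoding gene, against 10.9% of all 4380 assigned peaks, and of the 57 Treg peaks 17 (29.8%), against 11.8% of 3191. In the conventional list 18 of the 19 were in 12 long noncoding RNA genes and 1, at Hdac5, was in a microRNA gene. The 17 Treg peaks were in 12 long noncoding RNA genes. Peaks at 1 gene often share a noncoding gene, and no test was made. Besides Chaserr beside Chd2 and 5031425E22Rik beside Kmt2e, these included A930024E05Rik, which held the midpoints of all 3 conventional peaks of Kdm2b and of its Treg peak, and 3110056K07Rik, which held those of 2 conventional peaks and 1 Treg peak of Arid4a. The conventional-only peak at the low-coordinate end of Setd5 (chr6:113076825-113077476) had its midpoint in Gt(ROSA)26Sor, the noncoding gene of the Rosa26 locus used for transgene insertion. No Treg peak was assigned to Setd5. Without strand in the peaks, a peak in overlapping spans cannot be given to one of the genes.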
